A study of Mus musculus with 6 samples.

Results

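The 45 genes described here carry fatty acids into the cell, activate them and oxidise them in mitochondria and peroxisomes, or control that programme as peroxisome proliferator-activated receptors (PPARs) and their coactivators. They were chosen by symbol, and all 45 were found among the 21719 genes of the count table. The cells were MPC5, a mouse podocyte line that is immortalised conditionally, and 3 RNA-seq libraries were labelled Setdb2WT and 3 Setdb2KO. All 6 libraries came from cells in high glucose, so no normal-glucose group enters. The labels do not say whether the knockout is a single clone, whether cultures were pooled or whether the 3 libraries of a group were separate cultures, and p-values therefore cover only the spread among these libraries, which may be technical. The comparison asks how transcript levels differ between the genotype labels, Setdb2 being a member of the SET-domain family of histone methyltransferases.

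Fatty acids enter a cell with help from the scavenger receptor CD36 and SLC27 transport proteins, are held in the cytosol by fatty acid binding proteins, and are joined to coenzyme A by acyl-CoA synthetases. Long chains cross into mitochondria through the carnitine shuttle and are then shortened in cycles by an acyl-CoA dehydrogenase, a hydratase, a hydroxyacyl-CoA dehydrogenase and a thiolase, while peroxisomes shorten chains that are too long or branched for that route. PPARs bind DNA with retinoid X receptors and, with PGC-1 coactivators, raise transcription of many of these genes. In the kidney the pathway is best known as the main fuel supply of proximal tubule cells.

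The libraries held 36461449 to 37129174 reads each. Reads of Setdb2 itself numbered 12, 10 and 9 under the label Setdb2WT against 17, 15 and 25 under Setdb2KO, and this difference did not pass (adjusted p = 0.088, edgeR's quasi-likelihood test), so the groups are called WT-labelled and KO-labelled throughout and every direction is that of the KO-labelled against the WT-labelled libraries. Pairs of libraries differed more within the KO-labelled group (chi-square over its degrees of freedom 4.38 to 15.7) than within the WT-labelled group (2.55 to 2.71). Of 8 podocyte markers 6 were analysed. The cytoskeletal marker Synpo was present at 43.6 ± 0.60 and 25.4 ± 1.8 CPM (SD, n = 3 per group), Podxl, the charged coat protein of podocytes, fell from 50.5 ± 1.6 to 4.96 ± 0.38 CPM, and Wt1, a defining transcription factor, had 0 to 2 reads per library. The 6 adipocyte markers analysed summed to 0.142 to 0.230 CPM in the WT-labelled and 0.440 to 0.646 CPM in the KO-labelled libraries, and Adipoq had 0 reads in all 3 WT-labelled libraries. The 5 proximal tubule markers analysed summed to 598 to 600.1 and 149 to 159 CPM, mostly through Aqp1, a water channel that went from 468 ± 3.1 to 51.7 ± 1.8 CPM. The endocytic receptor Lrp2 fell 1.32-fold, its partner Cubn rose 1.68-fold, and Miox had 0 reads in all 3 WT-labelled libraries. The part of these marker shifts in the results below was not tested, and in bulk RNA fewer cells of a type and less RNA per cell cannot be told apart.

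Most of the enzymes and the 4 acyl-CoA synthetases among these genes were lower in the KO-labelled libraries, while the gate of the carnitine shuttle, Cpt1a, the ubiquinone-linked dehydrogenase Etfdh and the coactivator Ppargc1a were higher. Of the 40 genes with enough reads to test, 35 (87.5%) changed, 27 (67.5%) lower and 8 higher. The test was edgeR's quasi-likelihood test at an adjusted p of 0.05. CPM below are reads per 1000000 reads of the scaled library. Over all 13509 genes tested 83.8% changed, 42.3% lower and 41.5% higher, so a change as such does not set these genes apart. At least 2-fold falls numbered 12 and rises 5 of the 40 genes. Over the 13509 genes tested they numbered 2194 (16.2%) and 2215 (16.4%). The groups did not overlap in 34 of the 40 genes, against 84.6% of all genes. The median log2 fold change was -0.41, against 0.0045 over all genes tested. With scaling by total count alone, the median of all genes moved up by 0.15, that of the 40 genes became -0.26, and 25 were lower and 11 higher. Of the 40 genes, 38 reached the read minimum in both groups, Ppara reached it only through the KO-labelled libraries, where it was high, and Ppargc1b in neither group alone. Of those 38 genes 27 were lower and 7 higher. Ehhadh, Fabp3, Fabp4, Cd36 and Pparg had too few reads to test.

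**Figure D1:**
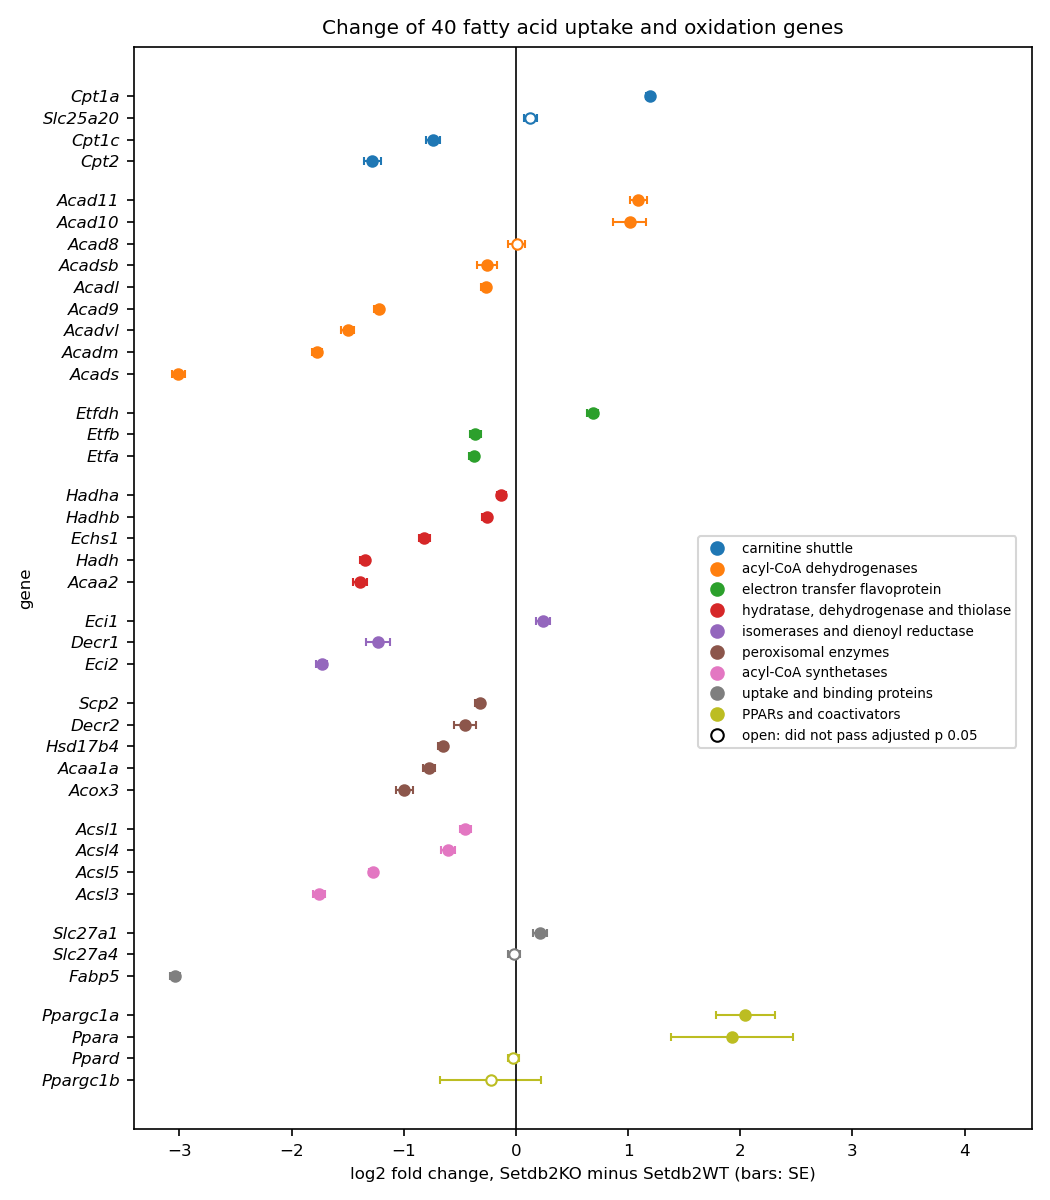
Log2 fold change of the 40 tested genes (x axis, Setdb2KO minus Setdb2WT libraries, bars give the SE), grouped and coloured by role; open circles did not pass edgeR's test. Fabp5 and Acads sit farthest to the left, at -3.04 and -3.01, and Ppargc1a farthest to the right, at 2.04.

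The carnitine shuttle moved in both directions. Cpt1a (Entrez 12894), the liver-type carnitine palmitoyltransferase that commits long chains to mitochondria, had 4323, 4193 and 4086 reads in the WT-labelled libraries and 10681, 10886 and 10254 in the KO-labelled ones. Every KO-labelled library thus lay above every WT-labelled one, and the level rose 2.29-fold from 120.0 ± 3.2 to 275 ± 7.0 CPM (SD, n = 3 per group; log2 fold change 1.20, SE 0.03, adjusted p = 4e-13, edgeR's quasi-likelihood test). Cpt2, the inner-membrane partner that regenerates acyl-CoA, had 905, 834 and 826 reads against 368, 422 and 373. Its groups lay apart in the other direction, with a 2.43-fold fall from 24.4 ± 1.3 to 10.1 ± 0.75 CPM (adjusted p = 1e-09, edgeR). Cpt1c, a brain-enriched relative of low enzymatic activity found in the endoplasmic reticulum, had 1433, 1335 and 1295 reads against 876, 964 and 849, a 1.67-fold fall (adjusted p = 5e-08, edgeR). Slc25a20, the carrier that exchanges acylcarnitine for carnitine, had 895, 997 and 951 reads against 1190, 1170 and 1070. Its scaled groups overlapped and it did not pass (log2 fold change 0.13, adjusted p = 0.059, edgeR); it passed as higher with DESeq2's size factors (adjusted p = 0.031), upper-quartile scaling (0.035), total-count scaling (0.00061), the stricter filter (0.030) or without Setdb2KO replicate 3 (0.020).

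Within a library the balance of the shuttle does not depend on scaling. There were 4.78, 5.03 and 4.95 Cpt1a reads per Cpt2 read in the WT-labelled libraries and 29.0, 25.8 and 27.5 in the KO-labelled ones, so the ratio was 5.58 times higher with no overlap. For each Cpt1c read there were 3.10 ± 0.076 Cpt1a reads against 11.9 ± 0.49 (SD, n = 3 per group). Per kb of exon, Cpt1a stood at 15.7 ± 0.42 CPM per kb in the WT-labelled libraries, ahead of Cpt2 at 10.2 ± 0.53 and Cpt1c at 6.90 ± 0.36. In the KO-labelled libraries Cpt1a reached 36.0 ± 0.92 CPM per kb, while Cpt2 at 4.20 ± 0.31 and Cpt1c at 4.14 ± 0.26 did not differ beyond their spread.

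**Figure D2:**
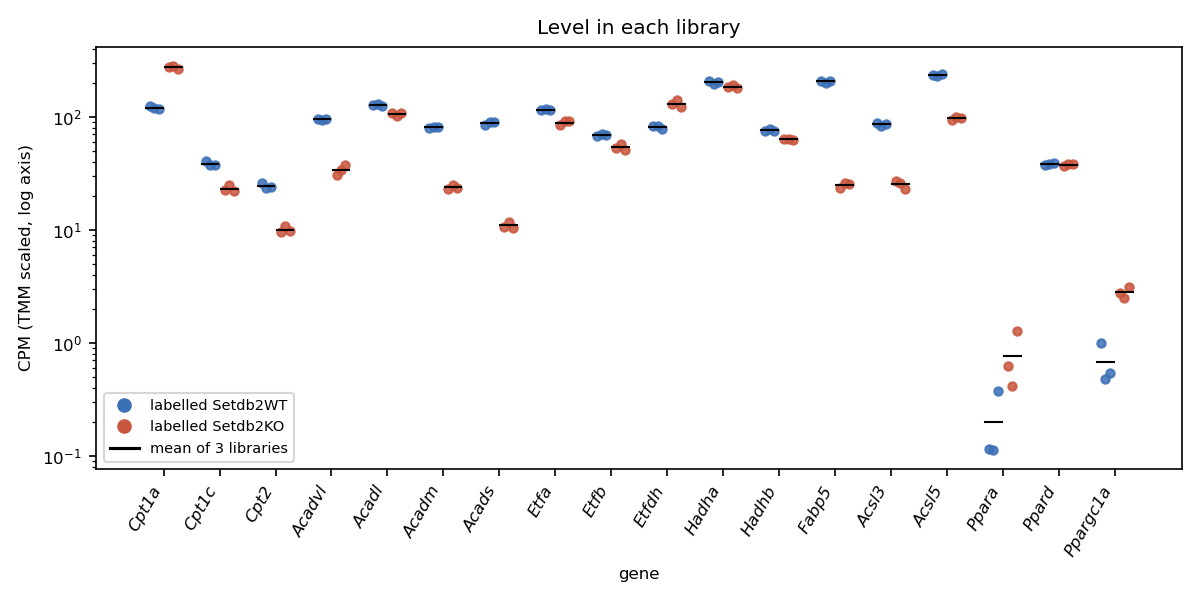
Level of 18 genes in each library (y axis, CPM scaled by TMM, log axis), with 3 WT-labelled (blue) and 3 KO-labelled (red) points per gene and a line at each mean. Cpt1a and Etfdh lie higher in red, Acads and Fabp5 far lower, and the points of Ppard overlap.

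The acyl-CoA dehydrogenases, which open each oxidation cycle, fell unevenly along the series of chain lengths. Acads, the short-chain enzyme, had 2974, 3159 and 3115 reads in the WT-labelled libraries and 409, 459 and 399 in the KO-labelled ones. This was the largest fall of an oxidation enzyme, 8.05-fold from 88.1 ± 2.6 to 10.9 ± 0.80 CPM (SD, n = 3 per group; log2 fold change -3.01, SE 0.06, adjusted p = 6.9e-15, edgeR's quasi-likelihood test). Acadm, the medium-chain enzyme whose loss causes the best known human oxidation disorder, had 2811, 2882 and 2852 reads against 887, 974 and 899. It fell 3.41-fold, from 81.4 ± 0.85 to 23.8 ± 1.2 CPM (adjusted p = 1.8e-13, edgeR). Acadvl, the membrane-bound enzyme for very long chains, had 3378, 3326 and 3361 reads against 1184, 1311 and 1432, a 2.83-fold fall (log2 fold change -1.50, adjusted p = 9e-12, edgeR). Acadl, the long-chain enzyme, moved least of these 4, falling 1.21-fold (log2 fold change -0.27, SE 0.04, adjusted p = 1e-05, edgeR).

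Acadl led in both groups, and the unequal falls changed the order behind it. Acadl supplied 40.1 ± 0.71% of the summed level per kb of Acadvl, Acadl, Acadm and Acads in the WT-labelled libraries and 69.2 ± 1.6% in the KO-labelled ones (SD, n = 3 per group). Acads went the other way, from 24.4 ± 0.58% to 6.31 ± 0.59%. In CPM per kb the order was Acadl (63.9 ± 1.4), Acads (38.8 ± 1.1), Acadvl (35.7 ± 0.49) and Acadm (20.8 ± 0.22) in the WT-labelled libraries. In the KO-labelled libraries it was Acadl (53.0 ± 1.9), Acadvl (12.6 ± 1.3), Acadm (6.09 ± 0.30) and Acads (4.82 ± 0.35). By these exon lengths Acads passed from the second place to the last. Its second place depends on the lengths used. In CPM without length, Acadvl (95.9 ± 1.3) lay above Acads (88.1 ± 2.6) in the WT-labelled libraries. Acads was last in the KO-labelled libraries by either measure. Reads of Acadl per read of Acads were 1.51, 1.46 and 1.40 against 10.2, 8.60 and 10.5, with no overlap.

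**Figure D3:**
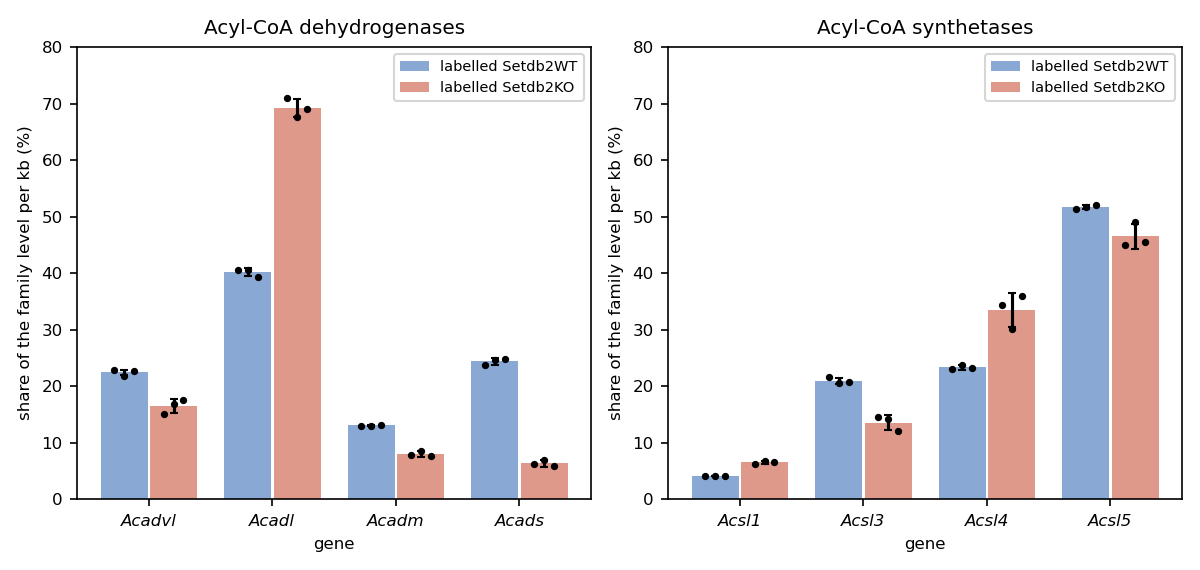
Share of the level per kb (y axis, %) that each gene holds among 4 acyl-CoA dehydrogenases (left) and 4 acyl-CoA synthetases (right); bars are means, error bars SD and dots the 3 libraries of each label. Acadl goes from 40.1% to 69.2% of its family, and Acsl4 from 23.3% to 33.4% of its own.

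The remaining dehydrogenases split. Acad9, which oxidises long chains and also helps to assemble respiratory complex I, fell 2.34-fold from 82.8 ± 0.55 to 35.5 ± 0.91 CPM (adjusted p = 1.8e-12, edgeR). Acad10 and Acad11, less studied relatives, rose 2.02-fold and 2.13-fold, but from low levels of 2.96 ± 0.58 and 9.34 ± 0.58 CPM. Acad8, which acts on a product of valine, had 704, 606 and 713 reads against 722, 791 and 728 and did not pass (adjusted p = 0.94, edgeR). Acadsb, which acts on short branched chains, had 1249, 1366 and 1358 reads against 1228, 1029 and 1413. Its groups overlapped, with Setdb2KO replicate 2 the lowest, and its 1.19-fold fall (adjusted p = 0.018, edgeR) no longer passed under total-count scaling (adjusted p = 0.31), under the stricter filter (0.057), without Setdb2WT replicate 2 (0.072) or without Setdb2WT replicate 3 (0.076).

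Promoter windows from RefSeq (GRCm38.p6, 250 bases before to 50 after a start) were found for 38 of the 45 genes, 43 windows in all. The PPAR element (a direct repeat of the core with a spacer of 1 base), the estrogen-related receptor element TCAAGGTCA, their shared core AGGTCA and the E-box CACGTG were searched on both strands; AGGTCA lies inside both longer motifs. The longer motifs were in 0 of 43 windows, and in 0.0396% and 0.423% of all 32851 windows. AGGTCA was in 9 of 43 windows (20.9%), of Acadm, Acadvl, Cd36, Cpt1a, Cpt1c, Echs1, Pparg and Scp2, against 16.3% of all windows. The E-box was in 1 window, of Slc27a1, against 7.15% of all. Of the genes with the core, Cpt1a rose, Acadm, Acadvl, Cpt1c, Echs1 and Scp2 fell, and Cd36 and Pparg were not tested. Whether the core has a part in these changes was not tested. The windows of Cpt1a (chr19:3323051-3323350, plus strand), Acadvl (chr11:70015379-70015678, minus strand) and Acadm (chr3:153944594-153944893, minus strand) are shown as 3 examples that hold the core. Capitals mark AGGTCA or its reverse complement.
Cpt1a: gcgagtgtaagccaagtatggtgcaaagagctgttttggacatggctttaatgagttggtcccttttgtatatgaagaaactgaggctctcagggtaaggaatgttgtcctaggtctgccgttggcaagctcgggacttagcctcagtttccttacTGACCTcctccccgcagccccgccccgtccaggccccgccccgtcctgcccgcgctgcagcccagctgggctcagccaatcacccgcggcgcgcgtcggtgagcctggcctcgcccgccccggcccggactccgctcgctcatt
Acadvl: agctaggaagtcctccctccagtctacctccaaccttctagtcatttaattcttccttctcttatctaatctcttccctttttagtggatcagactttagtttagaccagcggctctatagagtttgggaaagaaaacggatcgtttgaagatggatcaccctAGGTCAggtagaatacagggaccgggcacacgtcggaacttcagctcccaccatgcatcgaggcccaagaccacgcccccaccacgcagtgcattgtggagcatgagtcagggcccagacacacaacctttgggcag
Acadm: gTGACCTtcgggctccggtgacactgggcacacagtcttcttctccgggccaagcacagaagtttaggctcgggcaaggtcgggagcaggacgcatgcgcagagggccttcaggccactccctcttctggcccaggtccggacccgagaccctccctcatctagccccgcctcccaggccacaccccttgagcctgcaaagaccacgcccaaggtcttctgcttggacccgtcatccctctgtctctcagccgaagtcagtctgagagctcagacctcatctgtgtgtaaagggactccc
The core starts 94 bases before the start of Cpt1a, 87 before that of Acadvl and 249 before that of Acadm. A match describes letters in the window and is not a measured binding site.

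Electrons from every acyl-CoA dehydrogenase pass to the electron transfer flavoprotein, made of Etfa and Etfb, and from there through Etfdh to ubiquinone. Etfa had 3995, 4135 and 3970 reads in the WT-labelled libraries and 3253, 3533 and 3503 in the KO-labelled ones, a 1.30-fold fall. Etfb had 2380, 2465 and 2427 reads against 2062, 2231 and 1943, a 1.29-fold fall. Both subunits fell by similar folds, and reads of Etfa per read of Etfb, 1.68, 1.68 and 1.64 against 1.58, 1.58 and 1.80, overlapped between the groups. Etfdh moved the other way, with 2900, 2909 and 2747 reads against 5005, 5462 and 4684. It rose 1.61-fold from 81.5 ± 2.2 to 131 ± 9.6 CPM (SD, n = 3 per group; adjusted p = 8e-09, edgeR's quasi-likelihood test), and Etfdh reads per Etfa read went from 0.707 ± 0.017 to 1.47 ± 0.12. Over these 3 genes the summed level was 266 ± 3.5 against 274 ± 14 CPM, so the opposite shifts nearly cancelled in the sum.

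**Figure D4:**
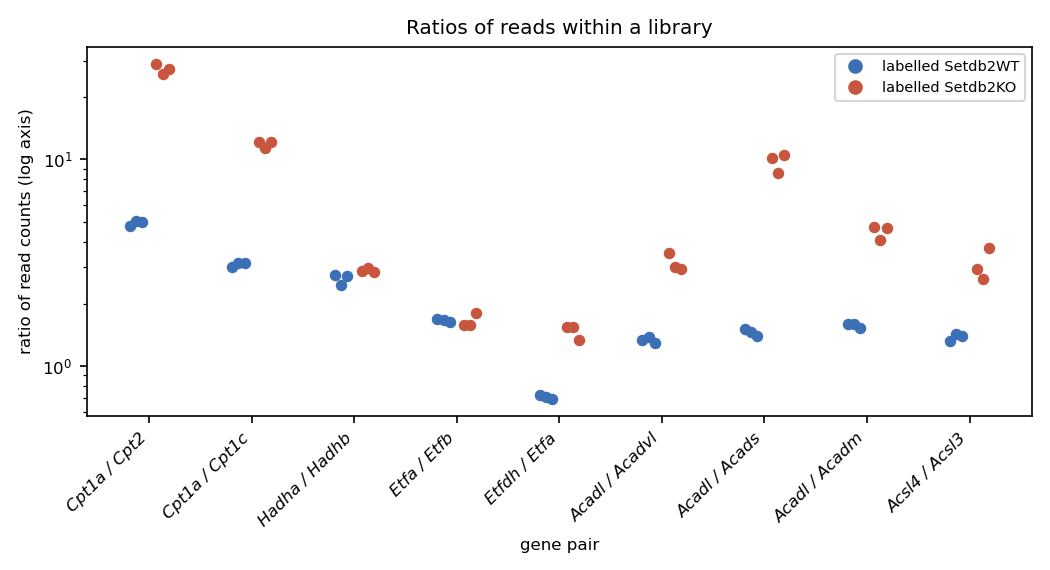
Ratio of the read counts of 2 genes in the same library (y axis, log axis) for 9 gene pairs, with 3 WT-labelled (blue) and 3 KO-labelled (red) points each. Cpt1a / Cpt2 and Acadl / Acads stand far apart between the groups, while Etfa / Etfb overlaps.

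The next steps of the cycle belong to the mitochondrial trifunctional protein for long chains and to soluble enzymes for shorter ones. Hadha, its hydratase and dehydrogenase subunit, had 7248, 6825 and 7102 reads in the WT-labelled libraries and 7072, 7374 and 6912 in the KO-labelled ones. Hadhb, its thiolase subunit, had 2619, 2778 and 2597 reads against 2464, 2477 and 2421. After scaling both were slightly lower, Hadha by 1.09-fold (adjusted p = 0.0044) and Hadhb by 1.20-fold (adjusted p = 2.2e-05, edgeR's quasi-likelihood test), but Hadha had a log2 fold change of 0.026 and did not pass under total-count scaling (adjusted p = 0.51). The soluble enzymes fell further. Hadh, the short-chain hydroxyacyl-CoA dehydrogenase, had 4086, 4104 and 3991 reads against 1736, 1729 and 1811, a 2.55-fold fall. Acaa2, the mitochondrial thiolase, had 1481, 1462 and 1405 reads against 644, 573 and 611, a 2.62-fold fall. Echs1, the short-chain hydratase, had 1923, 2076 and 2005 reads against 1199, 1323 and 1237 and fell 1.76-fold. In each of these 3 genes every KO-labelled library lay below every WT-labelled one, with adjusted p from 3.4e-13 to 1.9e-09 in edgeR's test.

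Hadha and Hadhb lie head to head on chromosome 5, and in RefSeq (GRCm38.p6) their starts are 273 bases apart, so that their promoter windows share 228 bases. The Hadhb window (chr5:30155003-30155302, plus strand) is shown because both genes share it and both moved little; capitals mark the bases that also belong to the Hadha window, which is read from the opposite strand.
Hadhb: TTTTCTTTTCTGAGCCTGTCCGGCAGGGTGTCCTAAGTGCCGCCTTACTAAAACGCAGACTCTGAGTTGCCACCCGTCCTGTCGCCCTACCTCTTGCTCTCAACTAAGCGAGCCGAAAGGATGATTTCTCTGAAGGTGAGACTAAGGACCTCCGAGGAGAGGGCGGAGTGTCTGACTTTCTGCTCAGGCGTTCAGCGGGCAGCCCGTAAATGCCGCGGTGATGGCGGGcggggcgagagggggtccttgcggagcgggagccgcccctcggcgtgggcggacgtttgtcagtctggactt
Reads of Hadha per read of Hadhb were 2.77, 2.46 and 2.74 in the WT-labelled libraries and 2.87, 2.98 and 2.86 in the KO-labelled ones, a ratio 1.09 times higher with no overlap between the groups. By these starts the genes do not overlap, and reads wholly within the stretch between them lie in neither. The submitters' annotation release was not found, and other starts of these genes were not examined.

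Enzymes that prepare unsaturated chains for the cycle were mostly lower. Eci2, an enoyl-CoA isomerase of mitochondria and peroxisomes, had 2039, 1985 and 1985 reads in the WT-labelled libraries and 669, 662 and 664 in the KO-labelled ones. The 3 KO-labelled libraries lay close together, and it fell 3.32-fold from 57.2 ± 1.0 to 17.2 ± 0.12 CPM (SD, n = 3 per group; adjusted p = 3.2e-13, edgeR). Decr1, the mitochondrial dienoyl-CoA reductase, had 409, 442 and 423 reads against 186, 181 and 231, a 2.35-fold fall. Eci1, the mitochondrial isomerase, was slightly higher, with 738, 842 and 771 reads against 1052, 1040 and 967, a 1.18-fold rise (adjusted p = 0.003, edgeR).

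All 5 testable peroxisomal enzymes fell, each by less than 2-fold, and their median log2 fold change stood at -0.65. Acox3, an oxidase for branched chains, had 704, 744 and 786 reads in the WT-labelled libraries and 404, 444 and 388 in the KO-labelled ones, a 1.99-fold fall from 21.3 ± 1.2 to 10.7 ± 0.71 CPM (SD, n = 3 per group; adjusted p = 2e-08, edgeR's quasi-likelihood test). Acaa1a, a peroxisomal thiolase whose reads a near-identical neighbour gene could share, had 1260, 1325 and 1227 reads against 801, 806 and 848 and fell 1.71-fold. Hsd17b4, which combines the hydratase and dehydrogenase steps, had 3335, 3432 and 3544 reads against 2459, 2503 and 2266 and fell 1.57-fold. The groups lay apart in all 5, with Decr2, a peroxisomal dienoyl reductase, and Scp2, a thiolase and sterol carrier, falling 1.37-fold and 1.25-fold. Ehhadh, the second peroxisomal enzyme that joins both steps, had 0, 1 and 1 reads against 1, 2 and 4 and was not tested. Its 2 and 7 summed reads gave a ratio of 3.17 with an exact 95% interval of 0.604 to 31.3, so no difference was detectable at this depth.

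The 4 long-chain acyl-CoA synthetases among the 45 genes fell, and their summed level went from 480 ± 7.7 to 230.1 ± 6.8 CPM (SD, n = 3 per group). Acsl3, a synthetase of the endoplasmic reticulum and lipid droplets, had 3077, 2920 and 3001 reads in the WT-labelled libraries and 1044, 1005 and 890 in the KO-labelled ones, a 3.38-fold fall (adjusted p = 1e-12, edgeR's quasi-likelihood test). Acsl5, the most abundant of the family here, had 8167, 8182 and 8397 reads against 3619, 3893 and 3757, a 2.42-fold fall. Acsl4, which prefers arachidonic acid and related polyunsaturated chains, had 4062, 4177 and 4175 reads against 3064, 2649 and 3306, a 1.52-fold fall. The KO-labelled libraries were the less even ones for Acsl4, with replicate 2 the lowest. Acsl1 fell 1.37-fold, the least of the 4.

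Shares within the family shifted less than in the dehydrogenases. Acsl5 held 51.6 ± 0.33% of the level per kb in the WT-labelled libraries and 46.5 ± 2.2% in the KO-labelled ones, and led in both. Acsl4 went from 23.3 ± 0.38% to 33.4 ± 3.1% and Acsl3 went from 21.0 ± 0.54% to 13.55 ± 1.3%. Acsl1 had the smallest share in both, 4.09 ± 0.057% and 6.53 ± 0.24%.

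Among the 6 listed genes of uptake and binding, Fabp5 carried nearly all of the difference in summed level. Fabp5, the epidermal fatty acid binding protein, had 7253, 7107 and 7268 reads in the WT-labelled libraries and 906, 1017 and 971 in the KO-labelled ones. It fell 8.24-fold from 206 ± 3.9 to 25.0 ± 1.4 CPM (SD, n = 3 per group; log2 fold change -3.04, SE 0.04, adjusted p = 6.4e-16, edgeR's quasi-likelihood test), the largest fall of the 40 genes; processed copies of Fabp5 exist in the mouse genome, and reads shared with them leave its level uncertain. The 2 listed SLC27 transporters, which couple uptake to activation, moved far less. Slc27a1 had 598, 610 and 616 reads against 766, 800 and 766, a 1.16-fold rise (adjusted p = 0.0053, edgeR). Slc27a4 had 1054, 1070 and 1154 reads against 1166, 1191 and 1218 and did not pass (log2 fold change -0.016, adjusted p = 0.80, edgeR), although under total-count scaling it passed as higher, at 0.14. Relatives outside the list, named after their values were seen, moved more. Slc27a3 rose 2.20-fold, from 7.39 ± 0.38 to 16.3 ± 1.3 CPM, and Slc27a5, which entered the test only through the KO-labelled libraries, had 3, 0 and 0 reads against 32 in each.

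The other 3 listed uptake genes were close to silent. Fabp3, the heart form, had 0, 0 and 2 reads in the WT-labelled libraries and 0 in each KO-labelled one, where a count of 0 allows up to 0.0259 CPM over the group, counting error only. Fabp4, the adipocyte form, had 1, 1 and 2 reads against 1, 0 and 0. Cd36 had 2, 0 and 0 reads against 0, 4 and 0. None of these 3 genes was tested, and Fabp5 accounted for at least 99.9% of the summed level per kb of Fabp3, Fabp4 and Fabp5 in 5 of 6 libraries.

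Of the 3 PPARs, Ppard, the widely expressed form, was by far the most abundant and did not pass the test. It had 1299, 1359 and 1370 reads in the WT-labelled libraries and 1418, 1486 and 1461 in the KO-labelled ones, 38.4 ± 1.1 and 37.7 ± 0.92 CPM (SD, n = 3 per group; log2 fold change -0.025, SE 0.05, adjusted p = 0.64, edgeR's quasi-likelihood test). Under total-count scaling it passed as higher, at a log2 fold change of 0.13 (adjusted p = 0.022). Ppara, the form tied to oxidation in liver and tubule, had 4, 4 and 13 reads against 24, 16 and 49. The groups did not overlap, with replicate 3 the highest in both. The test gave a log2 fold change of 1.93 with an SE of 0.54 (adjusted p = 0.0046, edgeR), but Ppara entered it only through the KO-labelled libraries, where it is high, so this p is no support for a rise. The 21 and 89 summed reads gave a ratio of 3.84 with an exact 95% interval of 2.37 to 6.51, counting error only. Without Setdb2WT replicate 3 the log2 fold change was 2.71, and over 13 alternatives it ran from 1.35 to 2.71 with adjusted p from 0.00021 to 0.038. Pparg, the adipocyte form, had 0 reads in each WT-labelled library, which allows up to 0.0286 CPM over the group, and 1, 0 and 1 in the KO-labelled ones. In CPM per kb, Ppard stood at 5.11 ± 0.15 and 5.02 ± 0.12 and Ppara at 0.0523 ± 0.039 and 0.201 ± 0.12, so Ppard led in every library.

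The coactivators were rare as well. Ppargc1a, which encodes PGC-1alpha, the coactivator of mitochondrial biogenesis, had 35, 17 and 19 reads in the WT-labelled libraries and 108, 97 and 119 in the KO-labelled ones. All KO-labelled libraries were higher, and the level rose 4.12-fold from 0.677 ± 0.28 to 2.80 ± 0.30 CPM (SD, n = 3 per group; adjusted p = 4.9e-06, edgeR's quasi-likelihood test), and its summed reads stood in a ratio of 4.14, with an exact interval at 95% from 3.19 to 5.43. Ppargc1b, its relative, had 16, 13 and 6 reads against 14, 11 and 8 and did not pass (adjusted p = 0.65, edgeR). The interval of its ratio of summed reads, 0.515 to 1.42, leaves changes in either direction undetectable at this depth.

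Summed by role, levels were higher for the shuttle and lower for most later steps. The level of the 4 shuttle genes went from 210.2 ± 5.4 to 338 ± 10.2 CPM (SD, n = 3 per group), led by Cpt1a. Acyl-CoA dehydrogenases went from 546 ± 3.5 to 287 ± 8.8 CPM, and the hydratase, dehydrogenase and thiolase genes from 492 ± 3.8 to 342 ± 5.3 CPM. Peroxisomal enzymes went from 226 ± 1.5 to 149 ± 2.8 CPM, and uptake and binding proteins from 255 ± 5.3 to 76.1 ± 2.4 CPM. All 45 genes together made up 2606 ± 11 CPM in the WT-labelled and 1786 ± 23 CPM in the KO-labelled libraries. These sums are descriptions without a test and follow their most abundant genes.

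Related genes of the pathway moved in both directions. Of 34 tested genes in a list of further oxidation genes 18 fell and 10 rose, 6 did not pass, and the median log2 fold change was -0.15. The 82.35% that changed lie near the 83.8% of all genes tested. Acaca, which makes the malonyl-CoA that inhibits CPT1, had 5990, 6046 and 5810 reads against 1534, 1635 and 1510 and fell 4.21-fold (adjusted p = 6.2e-15, edgeR's quasi-likelihood test). Acat1, a mitochondrial acetoacetyl-CoA thiolase, and Dbi, the acyl-CoA binding protein, fell 4.96-fold and 3.31-fold. Acot2, a mitochondrial thioesterase with a near-identical neighbour that leaves its reads uncertain, rose 6.69-fold from 16.0 ± 0.66 to 107 ± 7.9 CPM. Chosen after the values were seen, Mlycd, which breaks down malonyl-CoA, rose 2.76-fold and Acacb, the mitochondrial-surface form of the carboxylase, rose 3.85-fold from 0.95 ± 0.45 CPM.

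Of 17 tested PPAR targets and partners 8 were higher, 8 were lower and 1 did not pass, 47.06% lower against 42.3% of all genes tested. Plin2, a lipid droplet coat protein and PPAR target, rose 2.74-fold from 156 ± 4.4 to 429 ± 16 CPM (SD, n = 3 per group; adjusted p = 7.8e-14, edgeR's quasi-likelihood test). Lpin1, a phosphatidate phosphatase that also assists PPARs, fell 7.90-fold. The corepressor Ncor1 rose 1.67-fold. Of 4 ketone body genes tested, 3 rose and 1 fell (25.0% lower). Oxct1, which activates acetoacetate, was 1.23-fold higher and Acat1 lower. Of 17 tested genes of peroxisome biogenesis and catalase 10 fell (58.82%) and 7 rose. Both lists thus changed in full, against 83.8% of all genes tested, 42.3% lower and 41.5% higher. Cat, the peroxisomal catalase, fell 2.44-fold from 74.8 ± 1.7 to 30.7 ± 0.97 CPM (adjusted p = 2.7e-12, edgeR), Pex7, an import receptor, 2.69-fold and Pex19, a receptor for membrane proteins, 1.56-fold, while Pex6, an ATPase of receptor recycling, rose 2.49-fold.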

How the data were processed

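Total RNA of 6 libraries was measured by RNA-seq. The labels' protocols name TRIzol for the extraction and the VAHTS Universal V6 kit for the libraries. The authors deposited raw read counts per gene, 1 column per library. The submitters' processing notes name fastp, HISAT, HTSeq and the build GRCm39. Tool versions, the annotation release and whether strand was used in counting were not found in the sources used, so reads of overlapping or antisense genes cannot be told apart. Each column name gave a genotype and a replicate number that fit 1 sample, and 0 count columns were left over.

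The deposited counts were tested with edgeR (4.0.16, in R 4.3.3) by its quasi-likelihood test. Library sizes were scaled by TMM, filterByExpr kept genes at a minimum count of 10, and the model held genotype alone. P-values were adjusted by Benjamini and Hochberg's method across the 13509 genes that entered, with 0.05 as the threshold. Fitted fold changes use a prior count of 0.125. CPM are reads per 1000000 reads of the TMM-scaled library, and ± gives the SD over 3 libraries. Each library held 36461449 to 37129174 reads. Intervals of a ratio of summed reads are exact (Clopper and Pearson, 95%), allow for library size and cover counting error only. The scripts were tested on simulated data.

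Alternatives covered scaling (DESeq2's size factors, upper quartile, total count), the test (DESeq2 1.42.0 by Wald test, limma-voom from limma 3.58.1), the filter (none, or a stricter one that asks for a CPM of 1 in 3 libraries), a replicate block, and leaving out each library.

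The genes, their roles and the lists of related genes were chosen with earlier results of these data known. Values in every library are given for up to 3 genes per role with the largest change past the test and a mean CPM of at least 1, for the subunits of both heteromeric enzymes, for the CPT1 forms and the PPARs, and for genes that did not pass or were not tested. From each related list, up to 4 genes with the smallest adjusted p and a mean CPM of at least 5 are named. Pairs for ratios of reads within a library, and the table's own fatty acid degradation annotation, were chosen after the values were seen. Levels per kb use the union of exons in GENCODE M21 (GRCm38), which is not the authors' annotation, and all 45 genes had a length there. Promoter sequences are RefSeq's, in GRCm38.p6. Some genes that this rule names are not reported here. The planned comparison of protein sequences was not made.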

Additional observations from a re-analysis of the deposited data

How the results depend on the processing

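The counts of changed genes among the 45 stayed within 1.5 times of the main value under all 14 alternatives: 34 to 36 changed with a library left out, and 36 under total-count scaling. Their median log2 fold change ran from -0.50 to -0.39 with a library left out and was -0.26 under total-count scaling. Under that scaling the log2 ratio of summed levels was 0.84 for the shuttle, -0.77 for acyl-CoA dehydrogenases, 0.20 for the electron transfer flavoprotein, -0.37 for the hydratase, dehydrogenase and thiolase genes, -0.76 for isomerases and reductase, -0.44 for peroxisomal enzymes, -0.91 for synthetases, -1.59 for uptake and binding proteins, 0.23 for PPARs and coactivators and -0.39 for all 45; total-count scaling raises every such value by construction. The flavoprotein sum ran from -0.0031, without Setdb2KO replicate 2, to 0.066 with a library left out. Of 558 values of single genes under alternatives, 536 kept direction and call. Directions turned for Hadha (0.026), Slc27a4 (0.14) and Ppard (0.13) under total-count scaling. Slc27a4 also turned to 0.0049 with DESeq2's size factors and its Wald test, 0.0029 with upper-quartile scaling, 0.0064 with the stricter filter, and with a library left out ran from -0.055 to 0.015, with 0.0039 without Setdb2KO replicate 1. Acad8 turned to -0.0069 with no filter and ran from -0.087 to 0.037 with a library left out, at -0.034 without Setdb2KO replicate 2. Ppargc1b ran from -0.55 to 0.057. Of these 5 genes Hadha alone had passed; beyond the scaling the cause was not tested. Changed calls of Slc25a20 and Acadsb stand beside their values above.

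With the replicate number as a block 35 genes of the 45 changed, 27 lower and 8 higher, the same counts as without it. The numbers did not pair the libraries: same-numbered libraries deviated from their group means with correlations of -0.0070, -0.067 and 0.019 over 10068 genes, and of the WT-labelled libraries only replicate 3 correlated best with its own number. Depth limits the genes with few reads, Ehhadh, Fabp3, Fabp4, Cd36, Pparg, Ppara and Ppargc1b.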

Other observations

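The table's own annotation lists 45 genes under fatty acid degradation, of which 22 are described above and 23 are not. Of the latter 16 were tested, and 9 fell, 3 rose and 4 did not pass. Among those tested 75.0% changed and 56.25% were lower, against 83.8% and 42.3% of all genes tested. Acat2, a cytosolic thiolase, fell 5.10-fold from 188 ± 7.8 to 36.8 ± 2.8 CPM (SD, n = 3 per group). Adh7, an alcohol dehydrogenase, fell 2.87-fold from 569 ± 7.3 to 198 ± 39 CPM, with a wider spread in the KO-labelled libraries. Aldh9a1 and Aldh2, aldehyde dehydrogenases, fell 2.07-fold and 1.31-fold, while Aldh3a2, which oxidises fatty aldehydes, rose 1.39-fold from 46.0 ± 0.31 to 63.9 ± 2.4 CPM. Adh5, the formaldehyde-handling alcohol dehydrogenase, was at 199.5 ± 2.9 and 200.4 ± 3.2 CPM and did not pass (adjusted p = 0.85, edgeR). These genes were chosen after their values were seen.

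Among partners of the PPARs chosen in the same way, Rxra, a retinoid X receptor, fell 2.18-fold and Rxrb, its relative, rose 1.60-fold. Esrra, an orphan receptor that drives oxidation genes together with PGC-1alpha, fell 1.70-fold from 44.4 ± 2.2 to 26.2 ± 2.6 CPM (SD, n = 3 per group), while Ppargc1a rose. Angptl4, a secreted inhibitor of lipoprotein lipase and a PPAR target, rose 2.38-fold from 12.8 ± 1.2 to 30.4 ± 0.57 CPM. Pdk4, another PPAR target, had 0 reads in each WT-labelled library and at most 1 read in a KO-labelled one.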
